A study of Homo sapiens with 8 samples.

Results

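m6A peaks in transcripts made of a single exon were followed in the acute myeloid leukemia cell line HL60 and in its Adriamycin-resistant derivative HL60/ADR. A peak was counted when its deposited annotation placed it in exon 1 of 1 and its listed gene symbol did not start with LINC. Of the 79384 peaks of both lines, 4556 met this rule, 2346 of 40550 in HL60 and 2210 of 38834 in HL60/ADR. The symbol rule left out another 93 and 73 peaks. The peaks lay on single-exon transcripts of 2276 genes, 965 of which carried such peaks in both lines, 667 in HL60 alone and 644 in HL60/ADR alone. Because the listed symbol is that of a nearby gene, it differed from the gene of the annotated transcript in 1370 of the 4556 peaks, and each peak is given here under the gene that owns the transcript. A gene of the LINC series owned the transcript of 22 peaks that carried another symbol. A peak on the protein-coding part of an intronless gene is a member only where it touches no untranslated region, since the annotation gave those regions priority.

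HL60 is a promyelocytic leukemia line grown without drug, and HL60/ADR was selected from it in steps up to 0.5 μg/ml Adriamycin (doxorubicin), a topoisomerase II poison that its cultures went without for a week beforehand. For each line there were 2 libraries enriched for m6A by antibody (IP) and 2 of total poly(A) RNA (input). The titles alone assign libraries to HL60/ADR, since HL60 stands in the source and cell line labels of all of them. The study calls the libraries of a line biological duplicates, but no label says that they came from separate cultures, and p-values measure the spread between these libraries only. Peaks were deposited as 1 list per line from pooled libraries, with fold enrichment as the ratio of IP over input, and have no replicate spread. Expression was read from the input libraries as FPKM, for which the number of reads behind a value is not known. All 6 promyelocytic markers were listed in both lines, and their summed FPKM was 183 and 183 in HL60 and 1223 and 1257 in HL60/ADR, where the granule protease gene CTSG alone went from 5.57 and 7.87 to 795 and 819. The T cell sum went from 0.561 and 0.947 to 55.5 and 56.4, nearly all of it CD3D, while CD3E stayed below 1 and CD3G and CD2 were at 0.254 or below. The B cell marker CD79A was at 8.19 and 8.89 against 4.27 and 3.90. The epithelial and fibroblast sum ranged from 0.138 to 5.95, and the erythroid markers and MS4A1 were not analysed here. The part of these markers in the results was not tested.

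m6A is placed on RNA in the nucleus by the METTL3 and METTL14 methyltransferase complex, which prefers adenosines in the RRACH context, where R is A or G and H is A, C or T. In spliced mRNAs, the exon junction complexes left behind by splicing shield the surrounding sequence, so that m6A is found mostly in long internal exons and near stop codons. Single-exon transcripts carry no such complexes. They include intronless coding genes such as the heat shock and JUN genes, processed pseudogenes copied from spliced mRNAs, and long noncoding RNAs such as NORAD.

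The strongest member peak of HL60 covered the noncoding gene AC004687 on chromosome 17, whose transcript spans the locus of the blood cell microRNA miR-142. HL60 had 2 peaks there, with fold enrichments of 61.3 (chr17:58331297-58332508) and 45.0 (chr17:58330884-58331120), and HL60/ADR had 1 peak of 56.4 over the whole transcript (chr17:58330884-58332508). The HL60 peak of 61.3 shared 22 of the 87 bases of the miR-142 hairpin, and the HL60/ADR peak shared all 87. Hairpins of other microRNAs also lay under member peaks in both lines. That of miR-4453 lay within peaks of MIR4453HG, with a fold enrichment of 14.3 in HL60 and 8.98 and 7.09 in HL60/ADR. The hairpin of miR-3187 lay under peaks of 2.89 and 6.46, with its listed gene at an FPKM below 0.01. The miR-1184 hairpins MIR1184-1 and MIR1184-2 lay inside F8A1, on its opposite strand, and F8A2. The members over them were 11.4 and 22.1 in HL60 and 3.18 and 8.87 in HL60/ADR. At F8A1, each line also had a 3′ UTR peak over the member of the other line, of 12.3 in HL60 and 6.21 in HL60/ADR. F8A1 and F8A2 are near-identical copies on the X chromosome, so their values are uncertain. The mature sequences, taken from RefSeq on GRCh38.p14, are shown because these peaks cover their precursors, and capitals mark the seed, bases 2 to 8. No seed was shared between these microRNAs.
hsa-miR-142-5p: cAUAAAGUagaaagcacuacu
hsa-miR-142-3p: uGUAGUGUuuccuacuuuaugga
hsa-miR-4453: gAGCUUGGucuguagcgguu
hsa-miR-3187-5p: cCUGGGCAgcguguggcugaagg
hsa-miR-3187-3p: uUGGCCAUggggcugcgcgg
hsa-miR-1184: cCUGCAGCgacuugauggcuucc

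Sequence under the peaks was read where a RefSeq window of 300 bases around a gene start (GRCh38.p14, 250 bases before and 50 after) shared bases with a member peak and its transcript. This gave stretches of 38 bases or more for 41 expressed noncoding genes and pseudogenes. All 12 forms of RRACH were searched on the transcript strand, which are the letters GGAC before A, C or T, the letters GAAC before A, C or T, the letters AGAC before A, C or T and the letters AAAC before A, C or T. At least 1 match was found in 25 of the 41 stretches (61.0%), against a mean of 60.7% of all 35116 windows cut at the same offsets, so the stretches held the letters about as often as gene starts in general. The stretches shown belong to the genes followed below, from peaks with the fold enrichment given here, with RRACH matches in capitals. They were AC004687 (chr17:58332471-58332508, minus strand, 61.3 in HL60), AC019069 (chr2:74833938-74833987, minus, 30.9 in HL60), NORAD (chr20:36050911-36051018, minus, 8.65 in HL60/ADR), FOXD2-AS1 (chr1:47434592-47434641, minus, 21.9 in HL60/ADR), MIR4453HG (chr4:152536264-152536313, plus, 14.3 in HL60), AL118516 (chr22:46762479-46762563, minus, 11.2 in HL60/ADR) and H2BC20P (chr1:149850811-149850937, minus, 29.8 in HL60).
AC004687: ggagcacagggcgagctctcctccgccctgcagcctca
AC019069: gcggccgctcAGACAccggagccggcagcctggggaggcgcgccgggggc
NORAD: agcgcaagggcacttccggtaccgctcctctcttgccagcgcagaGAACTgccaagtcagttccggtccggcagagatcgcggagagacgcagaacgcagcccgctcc
FOXD2-AS1: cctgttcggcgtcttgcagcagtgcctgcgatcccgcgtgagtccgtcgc
MIR4453HG: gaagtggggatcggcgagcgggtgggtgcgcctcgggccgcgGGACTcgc
AL118516: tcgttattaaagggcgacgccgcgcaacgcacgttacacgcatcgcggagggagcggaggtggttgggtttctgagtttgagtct
H2BC20P: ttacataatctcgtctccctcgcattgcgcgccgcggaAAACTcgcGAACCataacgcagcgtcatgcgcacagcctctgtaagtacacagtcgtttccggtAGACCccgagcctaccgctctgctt
The stretches of AC019069, NORAD and MIR4453HG held 1 match each and that of H2BC20P held 3. Those of AC004687, FOXD2-AS1 and AL118516 held none, while 31.8%, 40.8% and 57.3% of all windows held a match at the same offsets. Longer stretches were available for AC131212, under a peak of 17.3 in HL60/ADR (chr12:132552052-132552351, plus), and for AL133215, under a peak of 11.3 in HL60 (chr10:101060702-101061001, minus). They held 4 and 8 matches, and 94.3% of all windows of 300 bases held at least 1.
AC131212: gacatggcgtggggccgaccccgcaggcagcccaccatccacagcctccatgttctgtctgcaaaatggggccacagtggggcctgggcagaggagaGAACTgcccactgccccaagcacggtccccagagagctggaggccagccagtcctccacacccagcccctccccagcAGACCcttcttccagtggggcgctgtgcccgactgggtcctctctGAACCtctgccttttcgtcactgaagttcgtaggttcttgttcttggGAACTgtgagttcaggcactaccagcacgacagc
AL133215: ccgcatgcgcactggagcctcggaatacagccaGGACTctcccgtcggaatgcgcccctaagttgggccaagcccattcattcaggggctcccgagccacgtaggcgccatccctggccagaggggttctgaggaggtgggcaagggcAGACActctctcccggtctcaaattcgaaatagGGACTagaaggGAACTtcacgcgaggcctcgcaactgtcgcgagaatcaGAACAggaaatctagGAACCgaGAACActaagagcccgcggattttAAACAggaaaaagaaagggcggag

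Noncoding genes and pseudogenes made up most of the member genes. There were 939 noncoding genes, 1024 pseudogenes, 84 intronless coding genes, 184 other coding genes, 14 mitochondrial genes and 31 unclassified genes. An intronless coding gene is one whose 1 listed transcript is the single-exon one. The 184 others are coding genes for which this was not so or could not be read. They are given here as single-exon transcripts of other coding genes. Among the peaks of HL60, 1036 were in noncoding genes, 1009 in pseudogenes, 75 in intronless coding genes, 191 in single-exon transcripts of other coding genes and 17 in mitochondrial genes. The counts in HL60/ADR were 1072, 855, 78, 163 and 16 in the same order, so pseudogenes had fewer peaks and noncoding genes more. Member peaks occurred in both lines in 460 noncoding genes, 407 pseudogenes and 24 intronless coding genes. In HL60 alone they occurred in 201 noncoding genes, 356 pseudogenes and 27 intronless coding genes, and in HL60/ADR alone in 278, 261 and 33. A member in 1 line alone was not always a peak in 1 line alone. Of the intronless coding genes, 17 of the 27 with members in HL60 alone and 14 of the 33 with members in HL60/ADR alone had a peak of the other line over a member, annotated to another region or gene. This was so in 36 of 201 and 19 of 278 noncoding genes and in 16 of 356 and 17 of 261 pseudogenes.

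Most of these genes were not expressed at a mean input FPKM of 1 or more. In HL60, 443 of 1482 listed genes with a member peak reached it (29.9%, Wilson 95% interval 27.6% to 32.3%), and in HL60/ADR 415 of 1457 did (28.5%, 26.2% to 30.9%). The expressed share was 19.9% and 20.9% for noncoding genes, 29.4% and 29.2% for pseudogenes, and 33.3% (17 of 51) and 24.6% (14 of 57) for intronless coding genes. It was 75.6% and 68.2% for single-exon transcripts of other coding genes, whose FPKM counts all transcripts of the gene and so need not measure the single-exon one. All these intervals cover counting error only. Among the 84 intronless coding genes, 31 were expressed in either line and 21 in both. They included PCBP1, JUN, JUND, THAP11, F8A1, RRAGA, the heat shock genes HSPA1A and HSPA1B, IRF2BPL, KBTBD6, FZD2 and LENG9.

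**Figure D1:**
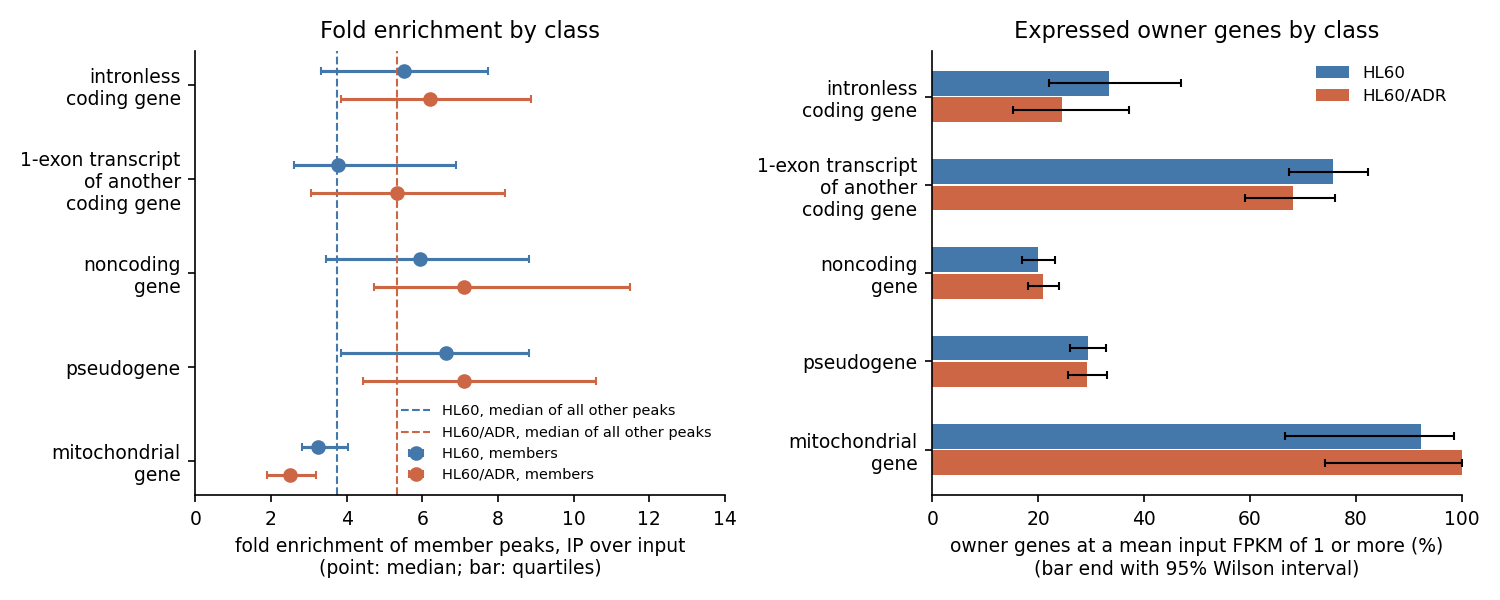
Fold enrichment of member peaks (left, points at the median with bars over the quartiles, dashed lines at the median of all other peaks of each line) and the share of owner genes at a mean input FPKM of 1 or more (right, bars in percent with Wilson 95% intervals), by class, for HL60 in blue and HL60/ADR in orange. Pseudogenes and noncoding genes sit above the dashed lines with low expressed shares, and mitochondrial genes sit below them, at medians of 3.23 and 2.49, with expressed shares of 92.3% and 100%.

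Fold enrichment of member peaks was above that of all other peaks as a whole, and much less so within ranges of expression. Members were placed in these ranges by the FPKM of the owner gene, and other peaks by that of their listed gene. Where the genes differed for members, the median FPKM in HL60 was 0.423 for owner genes and 3.35 for listed genes. In HL60/ADR it was 0.268 and 2.68, so the ranges are not fully alike. The median was 6.07 (95% interval 5.63 to 6.57) in HL60 against 3.75 for all other peaks, and 7.09 against 5.32 in HL60/ADR. By class, the medians in HL60 and HL60/ADR were 6.62 and 7.09 in pseudogenes, 5.95 and 7.09 in noncoding genes, 5.52 and 6.21 in intronless coding genes, and 3.78 and 5.32 in single-exon transcripts of other coding genes. Genes below 0.5 FPKM held 53.1% of members in either line, while they held 20.4% of other peaks in HL60 and 21.1% in HL60/ADR. In genes of 0.5 to 5 FPKM, the medians were 4.19 for members and 3.68 for other peaks in HL60, and 5.32 and 5.05 in HL60/ADR. In genes of 5 FPKM or more they were 2.98 and 2.82 in HL60, and 3.21 and 3.55 in HL60/ADR, where the members were the lower ones.

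Many member values came at whole steps or with weak statistical backing. Fold enrichment fell on a whole multiple of 1.104 in 35.5% of the members of HL60 (17.2% of other peaks) and of 0.8865 in 53.8% of those of HL60/ADR (27.2%), counted from 6 to 40 steps. In spliced transcripts, peaks of first exons did so in 30.9% in HL60 and 41.6% in HL60/ADR, and peaks of other exons in 21.2% and 36.2%. The peak caller gave a false discovery rate above 0.05 to 33.8% of members in HL60 and 27.4% in HL60/ADR, against 19.0% and 15.3% of other peaks. Members with both a fold enrichment of at least 4 and a false discovery rate no higher than 1e-05 numbered 357 in HL60 (15.2%) and 503 in HL60/ADR (22.8%), against 22.6% and 34.8% of other peaks. A low share was not particular to members. It was 15.4% in HL60 and 25.5% in HL60/ADR for peaks of first exons, and 15.4% and 23.5% for peaks of other exons. PKDREJ, an intronless gene of the polycystin family chosen here after its values were seen, shows the low end of expression. It carried 6 peaks in HL60 and 5 in HL60/ADR with fold enrichments up to 26.5 and 21.6, while its FPKM was listed at 0, 0.00464, 0 and 0.00356 in the 4 input libraries.

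Peaks covered a large part of short transcripts, and on those over 3 kb the part nearest the start held the largest share. Member peaks had a median width of 348 bases in HL60 and 330 in HL60/ADR. On transcripts under 1 kb, a peak took a median of 64.4% and 66.8% of the transcript, and 45.9% and 49.8% of peak centres fell in the middle one of 5 equal parts, where a peak over the whole transcript has its centre. On transcripts over 3 kb, peaks took 7.64% and 8.36%. Of their centres in HL60, 31.0% (26.3% to 36.1%) fell in the part nearest the start, as did 31.3% (26.3% to 36.8%) in HL60/ADR, and 14.7% and 15.3% in the part nearest the end. On transcripts of 1 to 3 kb, the part nearest the start held 22.4% in HL60 and 20.3% in HL60/ADR, and the part nearest the end 17.4% and 19.7%. A long transcript with several peaks counts several times in these shares. Peaks annotated to untranslated regions are not members, so the shares do not describe all peaks of coding transcripts. All bases lay on the annotated transcript in 3287 of the 3477 peaks with a known transcript span, and 50 peaks, all of several blocks, had no base on it.

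NORAD, a cytoplasmic noncoding RNA of 5401 bases that binds PUMILIO proteins, had its strongest member peak near the start in both lines. HL60/ADR had 1 peak of 8.65 over the start of the transcript (chr20:36049556-36051018). HL60 had a peak of 4.14 at the same place and 3 weaker ones of 1.39, 1.11 and 1.67 further along. Its input FPKM was 54.7 and 53.7 in HL60 and 57.2 and 54.1 in HL60/ADR, with overlapping ranges. FOXD2-AS1, a noncoding transcript of 2509 bases antisense to the forkhead gene FOXD2, had 5 peaks of 1.80 to 5.37 in HL60 and 1 peak of 21.9 over its whole length in HL60/ADR. AC144652 had 3 peaks of 6.62, 7.17 and 7.36 in HL60 and 1 peak of 8.19 in HL60/ADR. Such differences in how the caller split a signal were frequent in both directions, since 277 HL60/ADR members overlapped 2 or more HL60 members and 240 HL60 members overlapped 2 or more HL60/ADR members.

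**Figure D2:**
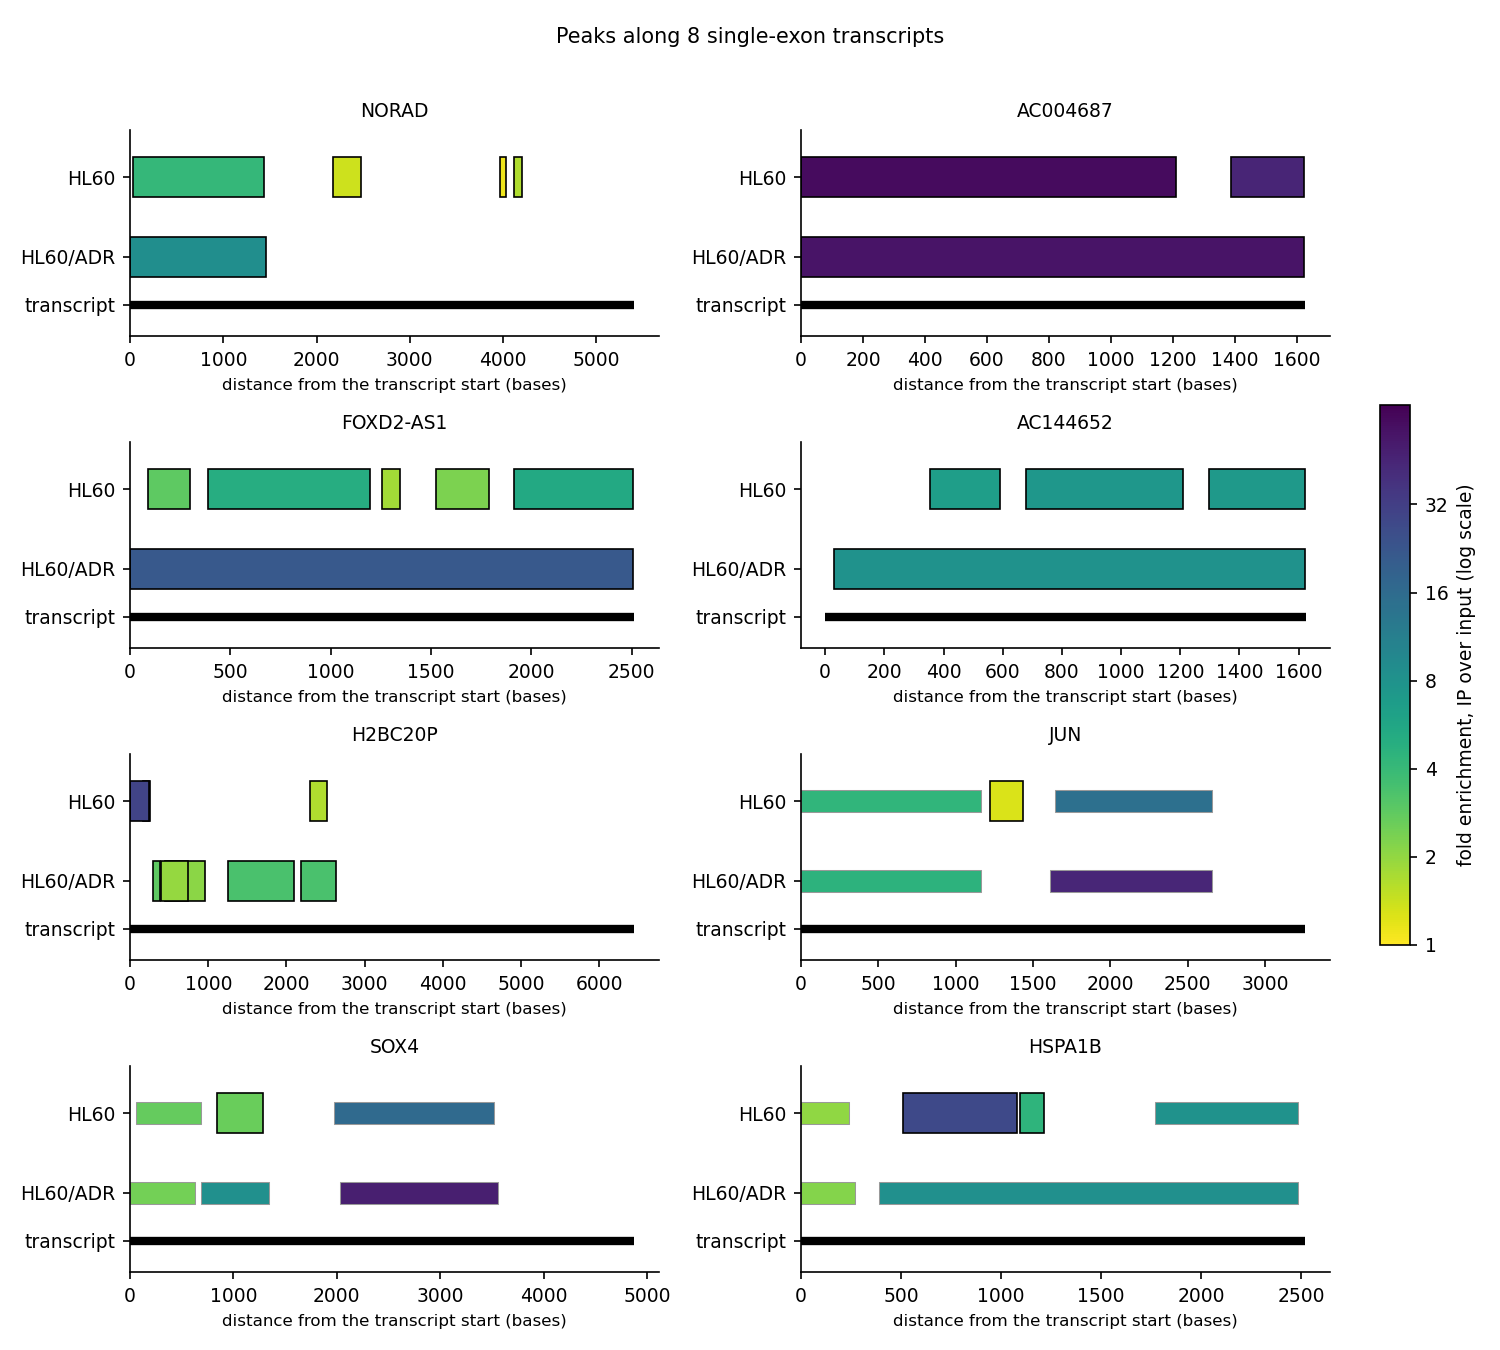
Peaks along 8 single-exon transcripts, with distance from the transcript start in bases on the horizontal axis, HL60 above HL60/ADR in each panel, and color giving fold enrichment on a log scale. Tall outlined bars are member peaks and thin bars are peaks of 1 block annotated to untranslated regions, cut at the transcript ends. NORAD and FOXD2-AS1 show 4 and 5 peaks in HL60 and 1 in HL60/ADR, and JUN and SOX4 carry their highest values, 44.4 and 48.8 in HL60/ADR, in thin bars toward the end of the transcript.

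In JUN, SOX4 and JUND, the members were the weaker peaks of the transcript. JUN, a subunit of the AP-1 transcription factor, had a member peak of 1.27 in HL60 and none in HL60/ADR, while its 3′ UTR peak was 14.9 in HL60 and 44.4 in HL60/ADR and its 5′ UTR peak 4.35 and 4.55. JUND, another AP-1 subunit, had a member peak of 1.32 in HL60 and a 3′ UTR peak of 6.61, and in HL60/ADR 1 peak of 17.0 annotated to the 3′ UTR spanned both. SOX4, a transcription factor of progenitor cells, had a member peak of 2.65 in HL60, beside 3′ UTR peaks of 16.3 in HL60 and 48.8 in HL60/ADR. The overlapping peak of HL60/ADR, at 8.42, was annotated to the 5′ UTR and is not a member, so absence from the member list was not absence of a peak. Over all intronless coding genes with a member peak, HL60 had 34 peaks in 5′ UTRs, 49 in 3′ UTRs and 60 in the single exon under the gene's own symbol, and HL60/ADR had 45, 46 and 59.

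Input expression was compared to ask which of these genes differed between the drug-resistant and the parental line. Of the 2037 member genes in the expression table, 813 had a mean FPKM of 0.5 or more and were tested. On log2(FPKM + 1), limma called 87 higher (10.7%) and 95 lower (11.7%) in HL60/ADR, where a call needed a log2 fold change over 1 in size as well as an adjusted p below 0.05. Of all 13053 tested genes, 8.93% were called higher and 13.8% lower. The member shares were thus near the background, somewhat above it for higher and below it for lower calls. The median log2 fold change was -0.18 for all tested genes, most of which were thus lower in HL60/ADR. For members it was 0.01, so members as a set did not show this shift. With each library centred on its median, a shift of 0.21, members split into 134 higher and 61 lower calls (68.7% higher, against 47.8% before), and all genes into 58.7% higher, against 39.3%. In bulk RNA, fewer cells of a type and less RNA per cell cannot be told apart.

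By class, 5 of 37 tested intronless coding genes were called higher and 5 lower, 40 and 42 of 282 noncoding genes, 40 and 29 of 336 pseudogenes, and 2 and 18 of 144 other coding genes. In this order, the shares called higher and lower were 13.5% and 13.5%, 14.2% and 14.9%, 11.9% and 8.63%, and 1.39% and 12.5%. Of all tested genes, 8.93% were called higher and 13.8% lower. Higher calls were thus above the background in each class given here but the last. The first class rests on few genes. Genes with member peaks in HL60 alone had 12 higher and 31 lower calls of 194 tested, and those with member peaks in HL60/ADR alone 27 higher and 15 lower of 180. The shares were 6.19% higher and 16.0% lower for the former and 15.0% and 8.33% for the latter. Those of genes with member peaks in HL60 alone were near the background of all tested genes. A peak can be called only where a transcript has reads, so this grouping is not independent of the expression calls and gives no separate result. Some of these genes also had a peak of the other line under another annotation, as given above.

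The 3 stress-inducible heat shock genes on the member list were higher in HL60/ADR, and no other list had all its tested members called. HSPA1A and HSPA1B encode the same cytosolic HSP70 chaperone and HSPA6 a related one made under strong stress. HSPA1A was at 8.83 and 8.25 FPKM in HL60 and at 54.9 and 56.8 in HL60/ADR. HSPA1B was at 12.8 and 13.6 against 81.4 and 80.0, and HSPA6 at 1.20 and 1.14 against 10.00 and 9.45. The libraries of the lines did not overlap for any of these genes. Their log2 fold changes were 2.58 ± 0.04 (SE, limma adjusted p = 1.08e-05), 2.53 (9.86e-06) and 2.30 (1.62e-05). HSPA1A and HSPA1B are near-identical, so reads could be split between them and each value is uncertain.

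Heat shock peaks of HSPA1B and HSPA6 differed in extent between the pooled lists, so their values are not like for like. No difference between them was tested. In HSPA1A, the member peak was 18.8 in HL60 and 10.6 in HL60/ADR. HSPA1B had members of 27.6 and 4.41 in HL60, the latter with a false discovery rate above 0.05, and a 3′ UTR peak of 8.09. Over all of these, HL60/ADR had a long peak of 8.41, listed under the overlapping gene AL671762 and annotated to a 3′ UTR. A peak of 5.37 listed under SNORD52 also lay over the weaker member. HSPA6 had a member of 4.64 in HL60, and in HL60/ADR a peak of 11.7 over the same bases that reached into the 3′ UTR and was annotated there. HSPA7, a pseudogene of the family, rose from 3.32 and 2.85 to 18.3 and 18.1 FPKM (log2 fold change 2.23 ± 0.06, limma adjusted p = 2.65e-05) with peaks of 6.27 and 7.95, and shares sequence with HSPA6.

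The other called intronless coding genes, given here because all 10 were called, had different roles. HCAR2 and HCAR3, near-identical receptors for hydroxy acids on myeloid and fat cells, went from 0.149 and 0.119 to 2.32 and 2.48 FPKM and from 0.335 and 0.356 to 3.03 and 2.70, with members of 7.73 and 7.45 in HL60. Over these members HL60/ADR had peaks of 12.8 and 8.23, annotated to untranslated regions. SOX4 fell from 3.69 and 3.50 to 0.573 and 0.516 (log2 fold change -1.57 ± 0.06, limma adjusted p = 5.34e-05). EPOP, a partner of the Polycomb complex PRC2, fell from 6.77 and 6.59 to 1.44 and 1.69, and its only member peak was one of 2.10 in HL60/ADR. PPP1R3D, a glycogen-targeting subunit of protein phosphatase 1, fell from 3.56 and 3.63 to 1.04 and 1.12, with peaks of 2.69 and 4.43. LCMT2, an enzyme of tRNA wybutosine synthesis, fell from 1.97 and 1.84 to 0.406 and 0.357, with a member peak of 3.10 in HL60/ADR and a 3′ UTR peak of 5.90 over it in HL60. TIGD5, derived from a DNA transposon, fell from 2.49 and 2.69 to 0.604 and 0.855. The libraries of the lines did not overlap in these genes. With libraries centred on their medians, LCMT2 (-0.86), PPP1R3D (-0.93) and TIGD5 (-0.84) no longer passed the log2 fold change of 1, and TIGD5 was at -0.95 without HL60/ADR replicate 1.

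**Figure D3:**
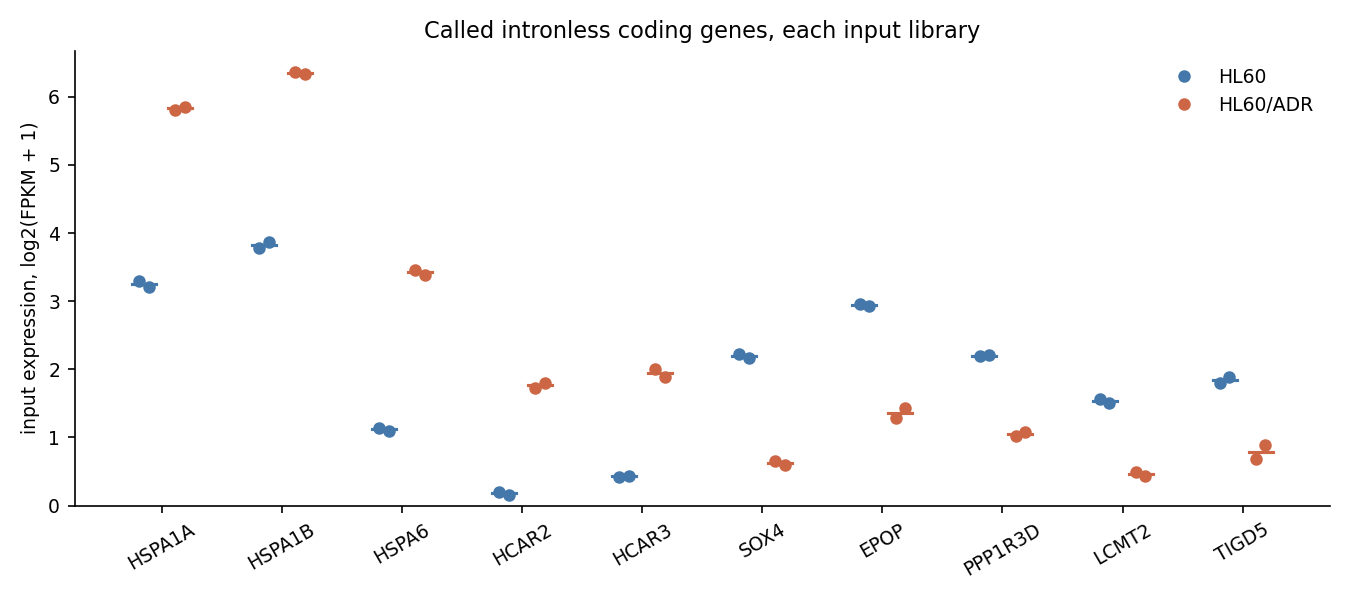
Input expression of the 10 called intronless coding genes in each of the 4 input libraries, as log2(FPKM + 1) on the vertical axis, with HL60 in blue, HL60/ADR in orange and bars at the mean of each line. HSPA1A, HSPA1B, HSPA6, HCAR2 and HCAR3 are higher and SOX4, EPOP, PPP1R3D, LCMT2 and TIGD5 lower in both HL60/ADR libraries.

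Other intronless coding genes were not called. PCBP1, which binds poly(C) tracts in RNA, was the most abundant, at 177 and 181 FPKM in HL60 and 211 and 205 in HL60/ADR, with overlapping pairs of peaks of 3.75 and 3.15 in HL60 and 2.68 and 2.16 in HL60/ADR. JUN was at 12.6 and 13.8 against 19.2 and 18.6, and JUND at 30.1 and 29.7 against 23.6 and 22.3. For these genes the log2 fold changes were 0.22, 0.49 and -0.37, all under the threshold of 1. F8A1, which encodes a huntingtin-associated protein, was at 12.5 and 16.4 against 13.1 and 9.77, and F8A2 at 5.33 and 2.72 against 2.86 and 3.31, so the lines overlapped in both copies.

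The remaining gene lists held few expressed members. Of 11 G protein coupled receptors, 4 were tested and none was called, with values of 0.40 for the adrenergic receptor ADRB1, -0.56 for the bitter taste receptor TAS2R5 and -0.52 for the sphingosine phosphate receptor S1PR4 as log2 fold changes. Clustered protocadherins, neuronal adhesion proteins whose variable exons are read from separate start sites, had members in 20 genes, 11 in HL60 and 18 in HL60/ADR, of which only PCDHGB2 was tested, at 0.193 and 0.198 FPKM against 1.32 and 0.575. PCDHGA5 carried the highest peak of this group, 26.5 in HL60, at 0.0538 and 0.0805 FPKM, under a peak of 40.8 in HL60/ADR annotated to the 5′ UTR. Members of single-exon transcription factors were FOXD1, FOXD4 and SOX4, of which only SOX4 was called. LCMT2 and the zinc finger gene ZXDB (log2 fold change -0.29) were the members of the DNA and RNA binding list. No member belonged to the C/EBP factors or to the retrogene enzymes.

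Replication-dependent histone genes are intronless, and their mRNAs mostly lack a poly(A) tail. Members were H2BC17 and 3 pseudogenes, and 2 of the 4 were called. H2BC20P rose from 2.23 and 2.10 to 6.97 and 6.94 FPKM (log2 fold change 1.33 ± 0.04, limma adjusted p = 3.75e-05), and H2BC19P from 1.49 and 1.63 to 5.60 and 5.90 (1.40 ± 0.06, limma adjusted p = 5.60e-05). H2BC17, at 0.373 and 0.0591 against 1.05 and 1.11, and H3C9P, at 0.431 and 0.843 against 0.664 and 0.534, were not called, although H2BC17 passed with a pseudocount of 0.5 (1.18) or 0.1 (2.10). The peaks of H2BC20P differed at the transcript start. In HL60, overlapping peaks of 29.8, over the stretch printed above, and 17.7 lay at the transcript start and one of 1.66 further along, inside the HL60/ADR peak of 3.40, whereas none of the 5 HL60/ADR peaks of 1.95 to 3.40 reached the start. That stretch also lies before the start of the histone gene H2AC19 on the opposite strand, and reads of near-identical histone copies could be split between them.

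Among noncoding genes, large rises and large falls were found in similar numbers. AC144652 rose from 0.873 and 0.550 to 16.4 and 14.3 FPKM (log2 fold change 3.26 ± 0.12, limma adjusted p = 4.70e-05), AC004908 from 0.969 and 1.09 to 10.9 and 11.9 (2.61 ± 0.07, 2.04e-05), and AL118516 from 1.05 and 1.43 to 13.5 and 10.5 (2.53 ± 0.15, 1.54e-04). NEAT1, the scaffold of nuclear paraspeckles, rose from 13.3 and 13.8 to 31.8 and 31.4 (1.17 ± 0.03, 2.10e-05). AC026401 rose from 7.57 and 6.51 to 23.6 and 22.5, and the antisense gene ZNRD2-AS1 from 0.303 and 0.0466 to 1.88 and 2.64. AC006538 fell from 7.76 and 7.70 to 0.364 and 0.238 (log2 fold change -2.75 ± 0.07, limma adjusted p = 2.00e-05), AC011498 from 5.93 and 6.82 to 0.161 and 0.116 (-2.69 ± 0.08, 2.91e-05), and AC004847 from 10.1 and 11.5 to 0.908 and 1.10 (-2.56 ± 0.09, 3.68e-05). AC019069, annotated by RefSeq as HK2-DT at the hexokinase 2 locus, fell from 2.38 and 2.34 to 0.170 and 0.225. No library of one line reached the range of the other in these genes. Antisense and overlapping genes among them are uncertain, since no source used here states that reads were counted by strand.

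Peaks were high in both lines in some noncoding genes whose level fell. AC004687, the miR-142 locus, fell from 20.9 and 21.8 to 7.11 and 6.20 FPKM (log2 fold change -1.55 ± 0.07, limma adjusted p = 7.29e-05), with peaks near the top of both lists. AC019069 had a peak of 30.9 in HL60 and 25.7 in HL60/ADR, where its FPKM was below 0.3. AL365181, at 7.55 and 7.61 against 1.92 and 1.99 FPKM, had 3 peaks of 3.43 to 4.53 in HL60 and 1 of 11.6 in HL60/ADR. The members of NEAT1 were weak, 2.21, 2.21 and 3.47 in HL60 and 3.02 in HL60/ADR, all in the long 3′ part of the gene, and none overlapped a peak of the other line. The peaks annotated to exons at its 5′ end reached 87.0 in HL60 and 220 in HL60/ADR. SNHG5, host of small nucleolar RNAs, had 4 members of 4.41 to 12.1 in HL60 and 3 of 6.21 to 10.6 in HL60/ADR. In HL60 all but the one of 12.1 had a false discovery rate above 0.05, as did the one of 6.21 in HL60/ADR. Several of these members overlapped within a line, and several carried the listed symbol PKMP3. The FPKM of SNHG5 was 1.49 and 1.37 against 3.71 and 3.59. CTBP1-DT and AL662795, each with 4 peaks in HL60 and 5 in HL60/ADR, were at 2.46 and 2.53 against 1.25 and 1.12 FPKM and at 3.69 and 3.20 against 2.65 and 2.47, and neither was called.

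Pseudogenes were the largest class by genes, and their values are the least certain, since reads can come from the parent gene. A listed parent symbol was found for 605 of the 1024 pseudogenes, which traced to 386 parents, and 93 were copies of ribosomal protein genes. HMGB1, KRT18, RN7SK and RPSA had 10 each and RPL7 had 9. The median FPKM was 19.8 in HL60 and 14.4 in HL60/ADR for the parents, and 0.287 and 0.190 for the pseudogenes. The most abundant were ribosomal and thymosin copies with weak peaks. TMSB4XP8 was at 231 and 174 FPKM in HL60 and 384 and 361 in HL60/ADR with peaks of 1.27 and 1.63, and RPL7P1 at 147 and 141 against 236 and 250 with a peak of 1.75 in HL60. Their parents were also higher in HL60/ADR, with mean FPKM of 535 and 1124 for TMSB4X and 250 and 427 for RPL7. AC116533 rose from 188 and 189 to 826 and 840 and carried a peak of 1.86 in HL60.

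RPS28P7, a copy of a small ribosomal subunit gene, had the largest change of the called members on the log2(FPKM + 1) scale, from 15.8 and 15.5 to 286 and 296 FPKM (log2 fold change 4.13 ± 0.03, limma adjusted p = 6.29e-06), with a peak of 1.22 in HL60/ADR. RPL10P9 rose from 86.9 and 91.7 to 374 and 380 (log2 fold change 2.07 ± 0.03, limma adjusted p = 1.04e-05) and RPL41P1 from 99.3 and 96.5 to 530 and 297 (2.01 ± 0.29, 0.00290), the latter with a wide spread between the HL60/ADR libraries. The parents rose too, with mean FPKM of 63.6 and 134 for RPS28, 82.6 and 244 for RPL10, and 509 and 1405 for RPL41. The part of parent reads in these changes was not tested. FAM96AP2 was listed at 0 and 0.0504 in HL60 and at 9.53 and 9.29 in HL60/ADR, with a peak of 13.0 in HL60/ADR. Of the pseudogenes that fell, BTBD6P1 went from 4.33 and 4.12 to 0.0262 and 0 and had a peak of 6.31 in HL60, and BCLAF1P2 went from 6.01 and 5.53 to 0.433 and 0.429 while its highest peak was 4.60 in HL60 and 10.2 in HL60/ADR. TRGVB and TRGV6, variable segments of the T cell receptor gamma locus chosen here after their values were seen, rose from 0.112 and 0.0895 to 2.88 and 3.39 and from 0.884 and 0.374 to 5.24 and 6.65, with peaks of 4.06 and 3.94 in HL60/ADR. CD3D rose in the same libraries, as given above, and its link to them was not tested. AGGF1P2 held the highest member peak of HL60/ADR, 61.2 (chr10:133641382-133642894), against 8.55 in HL60, at 0.591 and 0.490 FPKM against 0.751 and 1.03.

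Single-exon transcripts of other coding genes included some of the most abundant mRNAs. B2M, the light chain of MHC class I, was at 158 and 161 FPKM in HL60 and 209 and 213 in HL60/ADR and had members of 2.74 in HL60 and 1.84 in HL60/ADR, and OAZ1, the ornithine decarboxylase antizyme, 2.94 and 1.82 in HL60, both under an HL60/ADR peak of 3.29 annotated to another exon. H3-3B, which encodes histone H3.3, had a member of 14.2 in HL60/ADR that overlapped no HL60 peak, at 73.7 and 72.7 against 59.5 and 58.2 FPKM. Only MYL12A, a myosin light chain (63.9 and 64.2 against 135 and 136 FPKM), and the histone demethylase gene KDM4B (3.79 and 3.88 against 11.4 and 11.0) were called higher. Among the 18 called lower, the RNA-binding protein gene TAF15 went from 36.8 and 35.3 to 6.72 and 6.35 (log2 fold change -2.30 ± 0.04, limma adjusted p = 1.23e-05), the transporter SLCO3A1 from 3.88 and 3.86 to 0.0174 and 0.00546, the chemokine CCL4 from 24.1 and 24.1 to 4.86 and 5.09, and KLHDC7B from 2.69 and 2.92 to 0.0564 and 0.0237. KLHDC7B had 2 overlapping members of 15.8 and another of 2.48 in HL60 and none in HL60/ADR. HGS, a sorting protein of endosomes, fell from 15.0 and 15.3 to 5.27 and 4.79 with member peaks up to 8.83 and 8.87, below a 3′ UTR peak of 31.0 in HL60/ADR. ADCY9, an adenylate cyclase, fell from 3.77 and 3.64 to 1.04 and 1.05 (-1.20, and -0.99 with centred libraries), while its highest member was 12.0 in HL60 and 37.2 in HL60/ADR.

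Mitochondrial transcripts, copied from both strands of the organelle genome without introns, had the lowest fold enrichment of the classes. They carried 17 members in HL60 and 16 in HL60/ADR, with maxima of 6.62 and 6.40. MT-ND1, a subunit of respiratory complex I, was the only 1 of 14 called, and fell from 70.5 and 88.9 to 15.8 and 20.3 FPKM (log2 fold change -2.09 ± 0.16, limma adjusted p = 4.08e-04). MT-ND4 was at 73.5 and 75.4 against 43.2 and 47.9, MT-ND4L at 57.1 and 71.0 against 34.2 and 41.4, and MT-CO1 at 71.1 and 79.1 against 94.1 and 113. The ribosomal RNA MT-RNR2 was at 37.1 and 43.6 against 43.2 and 49.5. MT-CO2 was listed at 39.2 and 47.7 in HL60 and at 0 and 45.0 in HL60/ADR. A value of 0 in 1 library of an abundant gene can be a failed estimate, and its fitted change rests on that library.

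Member peaks recurred in the other line less often than other peaks did. At least 1 base of a peak of the other line was shared by 61.7% (59.7% to 63.7%) of members in HL60 and 60.4% (58.4% to 62.4%) in HL60/ADR, against 71.8% and 73.6% of all other peaks. The shares in HL60 and HL60/ADR were 80.0% and 70.5% in intronless coding genes, 69.2% and 59.2% in noncoding genes, 53.1% and 61.8% in pseudogenes and 60.7% and 57.1% in single-exon transcripts of other coding genes. By expression, members were again placed by the owner gene and other peaks by their listed gene. In genes below 0.5 FPKM the shares were 57.3% for members and 59.0% for other peaks in HL60 and 59.1% and 61.9% in HL60/ADR, with overlapping intervals. In genes of 0.5 to 5 FPKM they were 72.2% and 74.1% in HL60 and 63.8% and 75.3% in HL60/ADR. In genes of 5 FPKM or more they were 64.0% and 77.3% in HL60, and 69.4% and 80.0% in HL60/ADR, a wider gap than below 0.5 FPKM in both lines. Peaks of first exons in spliced transcripts recurred about as often as members, 62.1% and 58.6%. Pooled lists have no replicates, so no difference between lists was tested.

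Members that overlapped 1 to 1 gave 748 pairs in 683 genes, with a median log2 ratio of fold enrichment in HL60/ADR over HL60 of 0.27 (0.18 to 0.38), against 0.35 (0.33 to 0.36) for all 16544 pairs. A ratio more than 2-fold higher in HL60/ADR was found for 188 member pairs (25.1%, 22.2% to 28.4%), where 19.0% of all pairs had it, and a ratio more than 2-fold lower for 62 (8.29%, 6.52% to 10.5%), where 4.81% of all pairs had it. Where neither peak of a member pair was on a whole step, the shares were 18.1% (14.3% to 22.7%) and 5.62% (3.59% to 8.72%) of 320 pairs. Where 1 or both were on a step, they were 30.4% and 10.3% of 428. Steps were counted from 6 up, so the latter pairs hold the higher values, with medians of 7.73 in HL60 and 9.75 in HL60/ADR. All pairs were not split in this way, so these shares have no like background. The median log2 ratio was 0.45 (0.29 to 0.56) over 346 noncoding pairs, 0.13 (0.01 to 0.26) over 329 pseudogene pairs, 0.57 (-0.79 to 1.34) over 16 intronless coding pairs and -0.56 (-0.74 to 0.09) over 7 mitochondrial pairs. In genes of 1 FPKM or more in both lines, it was 0.09 (-0.07 to 0.34) over 181 member pairs, while the other 11853 pairs there kept 0.35 (0.33 to 0.36). The FPKM used here was that of the owner gene for member pairs and of the listed gene for other pairs. The lists were scaled separately, so the middle of the ratios has no fixed zero.

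**Figure D4:**
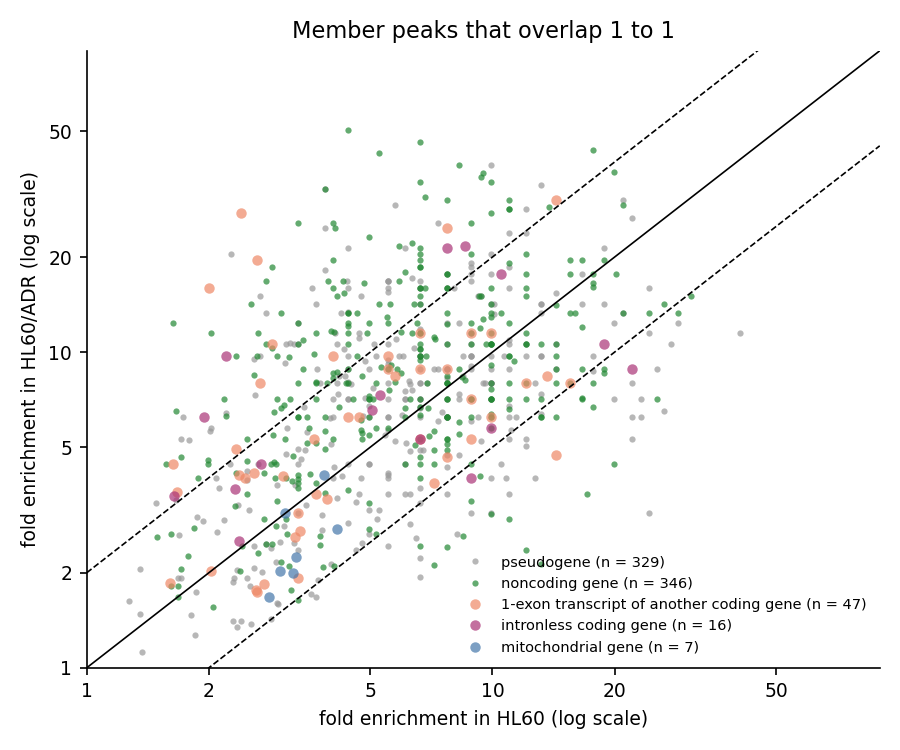
Fold enrichment of paired member peaks in HL60 (horizontal) and HL60/ADR (vertical), both on log scales, colored by class (3 of the 748 pairs, in unclassified genes, are not drawn), with the solid line at equal values and dashed lines at 2-fold. More points lie above the upper dashed line (188) than below the lower one (62), the 7 mitochondrial pairs lie between the dashed lines at low values, and the rows and columns of points are the whole steps of fold enrichment.

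The 2 largest ratios among expressed genes were in single-exon transcripts of coding genes. UQCC2, an assembly factor of respiratory complex III, had a pair of 2.40 in HL60 and 27.5 in HL60/ADR (chr6:33694293-33694711), at 4.38 and 4.30 against 4.67 and 4.56 FPKM. Both peaks of this pair carry the listed symbol ITPR3, so which gene gave the signal is uncertain. INPP5E, an inositol phosphatase of the primary cilium, had 2.63 and 19.5. Next came the noncoding genes LINC00294, listed under another symbol, with 1.66 and 6.50, and AC104530, with 9.47 and 37.0, and then the kinase gene MAP3K11 with 2.87 and 10.6. The lowest ratios were in AC005838 (7.73 and 2.42), PTMAP12 (12.7 and 3.99), AC122718 (8.16 and 2.66), the GTPase-activating protein gene ACAP1 (14.3 and 4.72) and AC090498 (6.62 and 2.22). Both AC090498 peaks had a false discovery rate above 0.05. ACSF3, an acyl-CoA synthetase of mitochondria, was not among the pairs, because its HL60/ADR member of 55.0 overlapped HL60 members of 1.96 and 3.59. Pairs in genes called lower in expression had a median log2 ratio of 0.82 (0.42 to 1.27, 41 pairs), those in genes called higher 0.47 (-0.11 to 0.68, 31 pairs) and those in tested genes without a call 0.21 (0.04 to 0.39, 279 pairs). Fold enrichment is divided by input and expression is read from the same input libraries, so the ratio and the expression change share data.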

How the data were processed

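RNA of 4 IP and 4 input libraries had been sequenced. The authors used fastp for cleaning, HISAT2 with GRCh38 for alignment, exomePeak on the pooled libraries of a line for peaks and ChIPseeker for their annotation (versions not given in the sources used here). The deposited lists hold the ratio of IP to input as fold enrichment. Significance was deposited as a p-value and as a score, log10 of that value or of its false discovery rate. The authors computed the deposited FPKM with StringTie. The expression table also holds annotation columns, which served for transcript spans. Columns with the authors' own comparisons were not used.

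Classes came from RefSeq gene types, gene descriptions and symbols. Genes whose mean FPKM over the 4 input libraries reached 0.5 were tested with limma 3.58.1 in R 4.3.3 on log2(FPKM + 1) (trend = TRUE, two-sided, cell line as the only term, Benjamini-Hochberg adjustment), a scale that understates the change of low genes. The script was tested on simulated data. Peaks were matched with bedtools 2.31.1 by 1 shared base within their blocks, without regard to strand. Other steps used Python 3.11.15. Intervals of shares are Wilson intervals of 95%, and those of medians are order-statistic intervals.

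Genes were named by a rule: the coding members with the highest fold enrichment, the most abundant members of each class, the 5 largest and 5 smallest ratios, the 6 largest rises and falls, members with 3 or more peaks in an expressed gene, and members of the gene lists, and HSPA7, HCAR2, HCAR3, EPOP, PPP1R3D, TIGD5, F8A1, AGGF1P2, AC019069, CCL4, KDM4B and others outside the rule were chosen after their values were seen. The members and lists were chosen with earlier results of these data known. A few genes are not reported here.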

Additional observations from a re-analysis of the deposited data

How the results depend on the processing

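Several results moved with the alternatives, and the balance of higher and lower calls turned with centred libraries and with smaller pseudocounts. The stricter threshold of 1e-05 and 4-fold left 357 and 503 member peaks in HL60 and HL60/ADR. The share of members that overlapped a peak of the other line was 27.2% and 33.4% with 50% of both peaks shared, 58.0% and 57.1% on the same strand, 65.2% and 64.3% over whole spans (chosen after seeing the data), and 88.2% and 87.5% for members past the stricter threshold. The median fold enrichment was 6.62 in HL60 with peaks of 2 or more only, 3.54 and 4.29 in genes of 1 FPKM or more, and 4.05 and 4.08 without whole steps. The median log2 ratio of pairs was 0.09 in genes of 1 FPKM or more in both lines. Calls numbered 175 higher and 167 lower with a pseudocount of 0.1, 138 and 134 with 0.5, and 134 and 61 with centred libraries. Without 1 replicate they were 91 to 93 and 91 to 102. The replicate numbers did not pair the libraries (correlation of replicate differences 0.043), and a fit with the replicate block gave 87 and 95. Of the named genes, 4 changed sign when 1 library was left out, with log2 fold changes of -0.63 to 0.13 for F8A2, -0.00 to 0.08 for NORAD, -0.21 to 0.16 for H3C9P (0.19 with centred libraries) and -5.47 to 0.05 for MT-CO2, which was listed at 0 in HL60/ADR replicate 1. None of these was called in the main analysis. Of 76 named genes, 6 that were not called passed with a pseudocount of 0.1 and 4 with 0.5. With centred libraries 3 passed, FOXD2-AS1 (1.20), SNHG5 (1.15) and TMSB4XP8 (1.10), and 4 calls were lost. The causes were not tested.

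Pooled lists limit the peak results, since no spread between libraries can be computed for them. The input reads behind a peak are not known here. FPKM without counts limits the precision known for low genes. Reads shared by near-identical copies limit pseudogenes, HSPA1A, HSPA1B, HCAR2, HCAR3, F8A1 and F8A2.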
